A study of Homo sapiens with 24 samples.

Results

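The glucocorticoid receptor gene NR3C1 and 8 genes for proteins that work with the receptor at its target genes (NCOA1, NCOA2, NCOA3, CREBBP, EP300, MED1, NRIP1 and NCOR1) were followed in newly made RNA of U2OS cells. The 9 genes were chosen by name, not by their values, from the 61533 genes of an exon count table, though with earlier results of these data known. All 9 were counted in each of the 24 libraries, and all 9 passed the filter on low counts.

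The glucocorticoid receptor (GR) is a nuclear receptor that lies in the cytoplasm until it binds a hormone or a drug such as dexamethasone, and then enters the nucleus and regulates genes through DNA elements. At those genes the ligand-bound receptor is met by p160 coactivators (NCOA1, NCOA2 and NCOA3), which bring in the histone acetyltransferases CREBBP and EP300. The Mediator complex, through its subunit MED1, links nuclear receptors to RNA polymerase. NRIP1 and NCOR1 act in the opposite direction, NRIP1 as a corepressor that binds receptors in the presence of ligand and NCOR1 as a scaffold for a histone deacetylase complex.

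The assay was 4sU-seq. Cells are given 4-thiouridine (here 200 µM for 1 h), build it into the RNA they are transcribing, and the labelled RNA is biotinylated, pulled down and sequenced. U2OS is a human osteosarcoma line with little GR of its own, and each of the 3 stable lines carried GR with a HaloTag, a protein tag that takes a fluorescent dye, at its C-terminus. The wt line carried wt GR-HaloTag, the SoF line carried the K492A mutant made to bind RNA less well, and the Ctrl line carried the R470A mutant, a control for the weaker DNA binding that comes with K492A. Cells grown in charcoal-stripped serum were given dexamethasone at 100 nM, a synthetic glucocorticoid, and collected after 1, 2 or 3 h, or were given 0.01% ethanol (0 h), with 4-thiouridine in the last hour. With 2 libraries for each line and time there were 12 groups and 8 libraries a line. The construct was driven by a CMV promoter on a PiggyBac plasmid with puromycin selection, and the study sorted each line by HaloTag dye and kept fractions with like amounts of nuclear GR. Every line was a single stable pool, and effects of construct and of pool cannot be told apart. The labels do not say whether the 2 libraries of a group came from separate cultures, so p-values measure the spread between these libraries, which may be technical. The study's methods state that the RNA of replicates was biotinylated and pulled down as pairs. Where the 2 libraries of a group shared a pulldown, a difference between groups and a difference between pulldowns cannot be told apart, and the spread within a group leaves the second out. How long the ethanol dishes were kept in ethanol is not given in the sources used here. Per the study's methods, the medium was replaced when dexamethasone or ethanol was added, and no ethanol libraries matched 1, 2 and 3 h. In every change over time below, effects of dexamethasone and of time since the new medium therefore cannot be told apart.

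Total counts ranged from 8106036 to 15820806 per library. Levels below are in CPM, the usual depth-scaled count, with library sizes adjusted by TMM. NR3C1 had 4479 to 75716 counts per library, and the least counted value among the other members was 514 (NCOA1), so the spread between libraries and not counting limited the comparisons. Among markers of a mesenchymal bone tumour line, VIM lay between 490 and 913 CPM, COL1A1 between 250 and 1008 CPM and RUNX2 between 51.5 and 158 CPM, while COL1A2 reached no more than 0.602 CPM and SP7, an osteoblast factor, no more than 0.172 CPM. Of the markers of other cell types, CD34, a blood progenitor marker, was at 2.32 to 11.1 CPM. The others reached at most 8.09 CPM for CDH1, 5.07 CPM for VWF, 3.60 CPM for EPCAM and 2.17 CPM for PTPRC. PECAM1, ALB and KRT19 reached at most 0.596, 0.104 and 0.101 CPM. CDH2, listed beside CDH1 but not particular to epithelial cells, was at 44.3 to 89.3 CPM. The part of these markers in the results was not tested. Fewer cells that make a transcript and less of it per cell cannot be told apart in such libraries.

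NR3C1 lies on the minus strand of chromosome 5 (hg38 chr5:143277931-143435512). The 2 altered codons of the constructs lie in its coding sequence, and the reference sequence from codon 466 to codon 496 is shown because it holds both. The first codon in capitals is codon 470, in exon 4 (chr5:143310155-143310157), changed in Ctrl, and the second is the codon of K492A, in exon 5 (chr5:143300756-143300758), changed in SoF. The stretch is read 5′ to 3′ along the transcript and its ends are chr5:143300744-143310169, with an intron between the exons left out.
NR3C1 codons 466 to 496: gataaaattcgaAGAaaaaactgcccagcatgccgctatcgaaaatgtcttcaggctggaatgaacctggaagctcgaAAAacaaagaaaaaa
Reads of the gene's own exons and of the introduced coding sequence were counted together in the table, so no NR3C1 value below separates these sources.

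NR3C1 differed between the lines more than any other member. Over its 8 libraries the wt line had 771 ± 458 CPM (SD, n = 8), SoF had 2855 ± 1926 CPM and Ctrl had 3503 ± 2099 CPM, and the large SDs include the change over time. Before dexamethasone the 2 wt libraries had 552 and 824 CPM, the 2 SoF libraries 2833 and 2428 CPM, and the 2 Ctrl libraries 3202 and 3431 CPM. At each of the 4 times both wt libraries lay below all libraries of the other lines, which held for 0.774% of all tested genes. On the log2 scale SoF exceeded wt by 1.94 (SE 0.21) and Ctrl exceeded wt by 2.27 (SE 0.22) at 0 h, which are 3.82-fold and 4.82-fold (edgeR quasi-likelihood test, Benjamini-Hochberg adjusted p = 4.57e-05 and 4.67e-06). The difference passed the test at every time, at 2.00, 1.65 and 1.68 for SoF minus wt and 2.19, 2.00 and 2.28 for Ctrl minus wt at 1, 2 and 3 h. NR3C1 was the one member of 9 called in each of these 8 comparisons, in which between 0.169% and 0.613% of all tested genes were called. Leaving out either library of the groups compared kept each of these 8 calls. These tests share the spread estimated from all 12 groups. A fit to the 0 h libraries alone called 0 of all genes in SoF minus wt and 4 in Ctrl minus wt. The 2 mutant lines were not told apart in edgeR's test, with SoF minus Ctrl at -0.33, -0.19, -0.35 and -0.59 in the order of the times (adjusted p = 0.834, 0.769, 0.763 and 0.298), where 0.347%, 0.44%, 0.359% and 0.668% of all genes were called. The 95% interval at 3 h ran from -1.02 to -0.17, so with no adjustment over genes SoF was lower at that time.

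**Figure D1:**
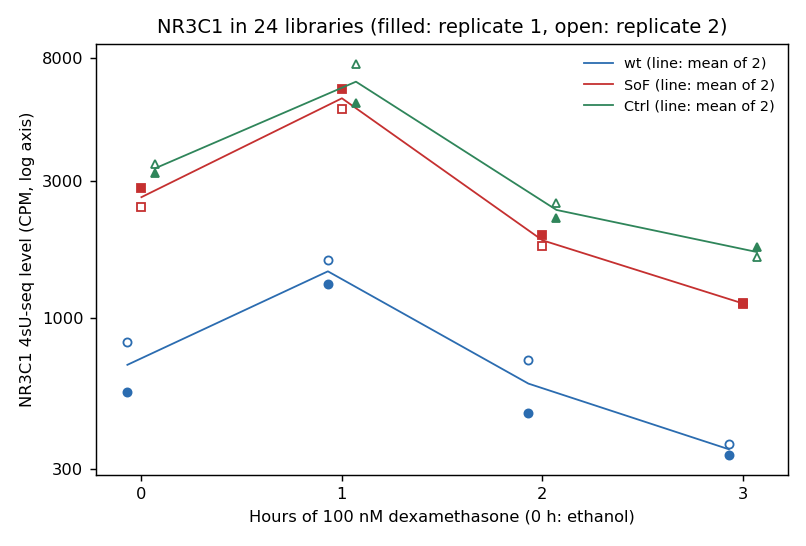
NR3C1 level in CPM (log axis) against hours of 100 nM dexamethasone for each of the 24 libraries, with 0 h for ethanol, filled symbols for replicate 1, open symbols for replicate 2 and lines through the mean of 2 libraries in wt (blue), SoF (red) and Ctrl (green). In each line the 1 h points lie above, and the 3 h points below, those at 0 h, and the wt libraries (334 to 1595 CPM) lay below those of the other lines at the same time.

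After dexamethasone, NR3C1 rose at 1 h in wt, in SoF and in the average over lines, and by 3 h it was below its starting level in every line. At 1 h the wt libraries had 1312 and 1595 CPM, the SoF libraries 6273 and 5330 CPM, and the Ctrl libraries 5592 and 7658 CPM. Both 1 h libraries lay above both 0 h libraries in every line, which held for 1.27% of all tested genes. The log2 change from 0 h was 1.08 in wt (SE 0.21, 2.11-fold) and 1.14 in SoF (SE 0.21, 2.21-fold), both past the test (adjusted p = 0.0307 and 0.0141, edgeR). In Ctrl it was 1.00 (SE 0.21, 2.00-fold) with an adjusted p of 0.134, and its 95% interval was 0.57 to 1.43. Only 0.156%, 0.165% and 0.0465% of all genes were called at 1 h in wt, SoF and Ctrl, so the adjustment over genes was strict at that time. The calls at 1 h rested on single libraries. The wt call was lost without wt 0 h replicate 1 (0.80) or wt 1 h replicate 2 (0.93), and the SoF call was kept in 1 of the 4 fits that left out a library, with changes of 1.01 to 1.26. Averaged over the 3 lines, with 6 libraries against 6, the rise was 1.07 (SE 0.12, 2.10-fold, adjusted p = 1.24e-05), and it was called in each of the 12 fits that left out 1 library, at 0.96 to 1.17. NR3C1 was the one member called in the averaged 1 h comparison, in which 1.28% of all genes were called.

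By 2 h the rise was gone. The wt libraries had 469 and 715 CPM, the SoF libraries 1947 and 1779 CPM, and the Ctrl libraries 2234 and 2515 CPM. Against 0 h the log2 change came to -0.22 in wt, -0.50 in SoF and -0.48 in Ctrl, none past the test (adjusted p = 0.623, 0.172 and 0.157), and the 2 wt libraries overlapped the 0 h libraries of wt. The average over lines was -0.40 (SE 0.12, adjusted p = 0.0148), and this call was lost without wt 0 h replicate 2 (-0.30) or wt 2 h replicate 1 (-0.32). The step from 1 h to 2 h, which does not use the 0 h libraries, was a fall in every line and came to -1.30 in wt, -1.64 in SoF and -1.48 in Ctrl (SE 0.21 each, adjusted p = 0.000618, 3.29e-05 and 0.00011). Each of these calls was kept without any 1 of its libraries, and NR3C1 was the one member called in SoF and in Ctrl, beside 18.3% and 10.6% of all genes. The averaged step was -1.47 (SE 0.12, 2.77-fold lower, adjusted p = 9.53e-09).

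At 3 h NR3C1 was lower than before treatment in all 3 lines. The wt libraries had 334 and 366 CPM, the SoF libraries 1118 and 1130 CPM, and the Ctrl libraries 1764 and 1627 CPM. Each lay below both 0 h libraries of its line, which held for 12.4% of all tested genes. The log2 change from 0 h came to -0.97 in wt, -1.23 in SoF and -0.97 in Ctrl (SE 0.21 each, adjusted p = 0.00347, 0.000264 and 0.00317, edgeR). NR3C1 was the one member called in each line at 3 h, where 10.7%, 19.3% and 14.2% of all genes were called in wt, SoF and Ctrl. The wt call was lost without wt 0 h replicate 2 (-0.64) and the Ctrl call without Ctrl 3 h replicate 2 (-0.91), and the SoF call was kept without any 1 library. The averaged change was -1.06 (SE 0.12, 2.08-fold lower, adjusted p = 4.25e-07), called in all 12 fits that left out 1 library. From 2 h to 3 h the averaged step was -0.66 (SE 0.12, adjusted p = 0.00068), and the steps in single lines (-0.76 in wt, -0.73 in SoF, -0.49 in Ctrl) did not pass the edgeR test (adjusted p = 0.107, 0.0624 and 0.418), beside 0.681%, 2.53% and 1.15% of all genes called. DESeq2 called this step in wt and in SoF. The 1, 2 and 3 h changes of a line share its 0 h libraries.

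The fall of NR3C1 was not told apart between lines. The 3 h change in SoF minus that in wt was -0.25 (SE 0.29, 95% interval -0.85 to 0.35), that in Ctrl minus wt was 0.01 (-0.59 to 0.61), and that in SoF minus Ctrl was -0.26 (-0.86 to 0.34), all with an adjusted p of 1. At 2 h the same differences were -0.28, -0.27 and -0.02. Under this test 0 of 9 members differed between lines in their response at 2 or 3 h, in edgeR and in DESeq2, and 0 of 9 had an unadjusted p under 0.05 in any of the 6 comparisons. Of all tested genes, 0.0127% were called in SoF minus Ctrl at 3 h and 0 in the other 5.

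The p160 coactivators moved in different directions. NCOA1 (SRC-1, hg38 chr2:24491254-24770702, plus strand) and NCOA2 (GRIP1 or TIF2, chr8:70109782-70403808, minus strand) fell, and NCOA3 (chr20:47501887-47656877, plus strand) rose. In wt, NCOA1 was at 84.9 and 94.6 CPM at 0 h, 94.3 and 91.2 CPM at 1 h, 72.9 and 65.6 CPM at 2 h, and 77.3 and 72.0 CPM at 3 h. In SoF the pairs were 71.9 and 68.8, 71.3 and 69.0, 54.3 and 60.3, and 62.6 and 64.7 CPM in the order of the times. In Ctrl they were 74.9 and 73.5, 77.7 and 73.2, 54.3 and 64.4, and 67.5 and 68.4 CPM. In all 3 lines the 2 h and the 3 h libraries lay below both 0 h libraries, as for 7.26% of all genes at 2 h and 12.4% at 3 h. The lowest values were at 2 h. Averaged over lines, NCOA1 changed by 0.02 at 1 h (95% interval -0.13 to 0.17), -0.33 at 2 h (SE 0.07, adjusted p = 0.00141, edgeR) and -0.18 at 3 h (SE 0.07, adjusted p = 0.0491). The 2 h call was kept without any 1 library (-0.38 to -0.29), and the 3 h call was kept in 1 of 12 such fits (-0.21 to -0.14).

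NCOA2 followed the same course. Its wt libraries had 100.2 and 105 CPM at 0 h, 105 and 127 CPM at 1 h, 93.8 and 63.8 CPM at 2 h, and 87.1 and 88.9 CPM at 3 h. The SoF libraries had 111 and 108, 113 and 102, 83.2 and 77.9, and 85.5 and 77.4 CPM at these times, and the Ctrl libraries 88.8 and 106, 107 and 90.3, 71.4 and 80.8, and 87.7 and 76.7 CPM. Every 2 h and 3 h library lay below both 0 h libraries of its line, by little for Ctrl at 3 h. The same held for 7.26% of all genes at 2 h and 12.4% at 3 h. The averaged change was 0.06 at 1 h, -0.39 at 2 h (SE 0.09, adjusted p = 0.003) and -0.30 at 3 h (SE 0.09, adjusted p = 0.0136). The 2 h call was kept without any 1 library, and the 3 h call was lost without Ctrl 3 h replicate 2 (-0.26). In the single lines neither gene passed the test against 0 h, but in wt both fell from 1 h to 2 h, NCOA1 by -0.42 (SE 0.12, adjusted p = 0.0279) and NCOA2 by -0.56 (SE 0.16, adjusted p = 0.0261). With NR3C1 these made 3 members of 9 called in that step, in which 13.5% of all genes were called. Without any 1 of the 4 wt libraries the NCOA1 call of that step was lost, and the NCOA2 call was kept in 1 of 4 fits.

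NCOA3 (SRC-3) was higher at 3 h in every line. Its wt libraries had 51.4 and 61.9 CPM at 0 h, 62.6 and 81.3 CPM at 1 h, 54.2 and 104 CPM at 2 h, and 80.4 and 78.7 CPM at 3 h. The SoF libraries had 81.4 and 74.5, 81.7 and 65.5, 78.8 and 91.4, and 116 and 112 CPM at these times, and the Ctrl libraries 83.6 and 90.3, 84.6 and 80.5, 93.0 and 90.2, and 102 and 106 CPM. Both 3 h libraries lay above both 0 h libraries in all 3 lines, as for 15.4% of all genes, while the wt libraries at 2 h spanned nearly the whole range of the gene in that line. The averaged change was 0.06 at 1 h, 0.23 at 2 h (95% interval -0.01 to 0.47) and 0.43 at 3 h (SE 0.12, 1.35-fold, adjusted p = 0.00473). It was called at 3 h in each of the 12 fits that left out 1 library (0.39 to 0.49). In single lines the 3 h change came to 0.49 in wt, 0.55 in SoF and 0.26 in Ctrl (adjusted p = 0.128, 0.0571 and 0.413).

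The acetyltransferase genes CREBBP (chr16:3725054-3880713, minus strand) and EP300 (chr22:41092592-41180077, plus strand) stayed close to their 0 h levels. CREBBP had 233 and 257 CPM in wt, 247 and 257 CPM in SoF and 279 and 267 CPM in Ctrl at 0 h. At 2 h it had 262 and 253, 289 and 262, and 264 and 299 CPM in wt, SoF and Ctrl, and at 3 h it had 224 and 219, 226 and 220, and 227 and 244 CPM. The 3 h libraries lay below both 0 h libraries in all 3 lines, as for 12.4% of all genes. The averaged change was -0.08 at 1 h, 0.08 at 2 h and -0.18 at 3 h (SE 0.07, adjusted p = 0.0437), and the 3 h call was kept in 1 of 12 fits that left out a library (-0.20 to -0.14). From 2 h to 3 h CREBBP fell by -0.26 (SE 0.07, adjusted p = 0.0171), a call kept in 5 of 12 such fits. EP300 had 353 and 342, 358 and 372, and 347 and 331 CPM at 0 h in wt, SoF and Ctrl, and 309 and 337, 309 and 326, and 311 and 330 CPM at 1 h. At 2 h it had 368 and 334, 413 and 379, and 336 and 396 CPM, and at 3 h 321 and 341, 323 and 332, and 307 and 320 CPM. Its 1 h libraries lay below both 0 h libraries in all 3 lines, as for 0.736% of all genes. So did its 3 h libraries, as for 12.4% of all genes. The averaged changes of EP300 were nevertheless small, at -0.13 (95% interval -0.28 to 0.02), 0.08 (-0.07 to 0.23) and -0.11 (-0.26 to 0.04) at 1, 2 and 3 h, and none passed the test. Its step from 1 h to 2 h was 0.21 (SE 0.07, adjusted p = 0.0215), called in 6 of 12 fits that left out a library.

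MED1 (chr17:39404285-39451272, minus strand), the Mediator subunit that contacts nuclear receptors, had no call over time. Its wt libraries ranged from 145 to 184 CPM with a median of 164 CPM, its SoF libraries from 171 to 195 CPM with a median of 185 CPM, and its Ctrl libraries from 169 to 202 CPM with a median of 184 CPM. The averaged change was 0.03, -0.02 and -0.10 at 1, 2 and 3 h, and the 95% interval at 3 h was -0.25 to 0.04. A non-coding gene on the other strand (ENSG00000266469) shares 8.76% of the exon bases of MED1 and was itself at 0.67 CPM.

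Of the corepressor genes, NRIP1 rose at 3 h and NCOR1 passed no test against 0 h. NRIP1 (RIP140, chr21:14961235-15065936, minus strand) had 90.1 and 115 CPM in wt, 109.9 and 135 CPM in SoF and 115 and 137 CPM in Ctrl at 0 h. At 1 h it had 122 and 125, 139 and 150, and 149 and 111 CPM in the same order, and at 2 h 117 and 109.5, 128 and 165, and 132 and 142 CPM. At 3 h it had 137 and 140, 139 and 164, and 148 and 135 CPM, with no overlap with 0 h in wt and SoF and an overlap in Ctrl. In each line replicate 1 at 0 h was the lower of the pair. The averaged change was 0.18 at 1 h (95% interval -0.01 to 0.38), 0.18 at 2 h (-0.02 to 0.37) and 0.30 at 3 h (SE 0.10, 1.23-fold, adjusted p = 0.0146). The 3 h call was lost without SoF 3 h replicate 2 (0.26) or wt 0 h replicate 1 (0.24), and with the 0 h replicate 1 of all 3 lines left out the change was 0.16 and not called. NRIP1 shares 6.61% of its exon bases with a gene on the other strand (ENSG00000229047, 0.0264 CPM) and 1.02% with one on its own strand (ENSG00000235609, 0.826 CPM).

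NCOR1 (chr17:16029065-16218185, minus strand) lay between 71.7 and 94.2 CPM in all 24 libraries. Its averaged change was 0.10 at 1 h, -0.11 at 2 h and -0.00 at 3 h (95% interval -0.16 to 0.15 for 3 h). Its step from 1 h to 2 h was -0.21 (SE 0.08, adjusted p = 0.0251), kept in 5 of 12 fits that left out a library. The neighbouring genes TTC19 (29.5 CPM) and PIGL (9.08 CPM) lie on the other strand and share 2.18% and 2.06% of the exon bases of NCOR1.

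**Figure D2:**
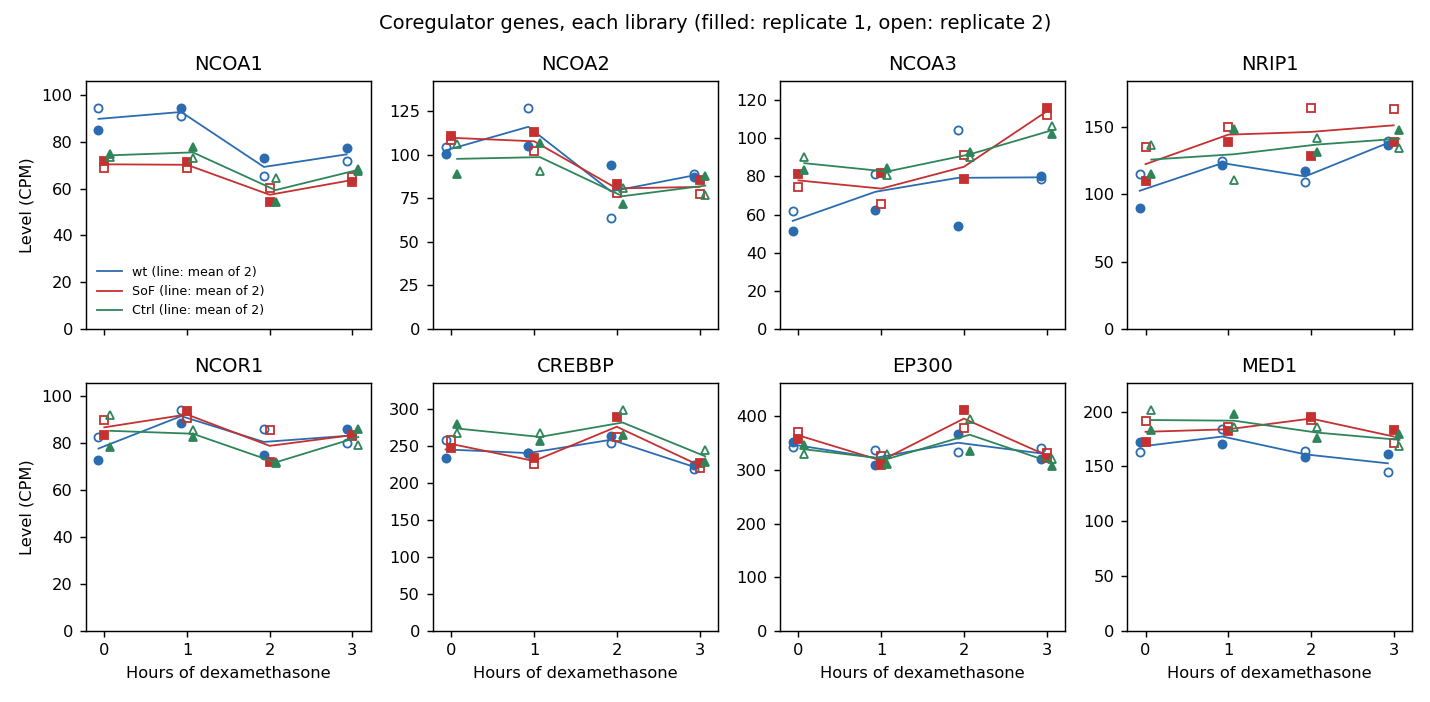
Levels in CPM (axes from 0) of the 8 coregulator genes against hours of dexamethasone, with a point for each library (filled for replicate 1, open for replicate 2) and lines through the mean of 2 libraries in wt (blue), SoF (red) and Ctrl (green). NCOA1 and NCOA2 were lower at 2 h than at 0 h in each line, NCOA3 was higher at 3 h, and both wt libraries of NCOA1 lay above those of the other lines at each time.

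**Figure D3:**
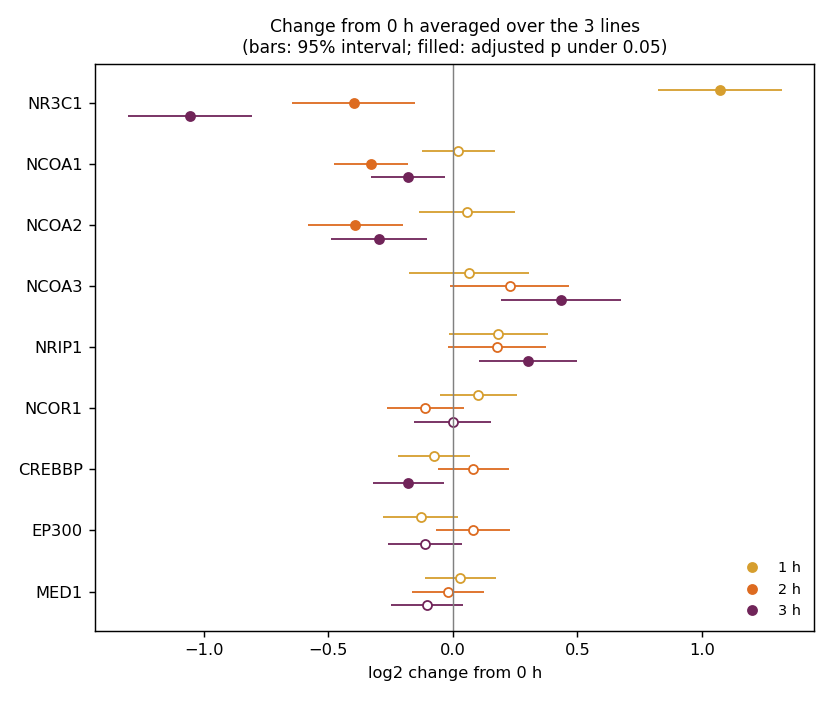
Change from 0 h in log2 units, averaged over the 3 lines, for the 9 members at 1 h (yellow), 2 h (orange) and 3 h (purple), with bars for the 95% interval and filled points for an adjusted p under 0.05. NR3C1 went from 1.07 at 1 h to -1.06 at 3 h, and the 8 coregulator genes stayed between -0.39 and 0.43.

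Counted together over the averaged comparisons, 3 members were called at 2 h, all lower (NR3C1, NCOA1 and NCOA2), and 6 at 3 h, with NCOA3 and NRIP1 higher and NR3C1, NCOA1, NCOA2 and CREBBP lower. At 2 h 28.8% of all tested genes were called (12.6% lower) and at 3 h 40.3% (20.9% higher, 19.3% lower), so these counts of 9 sit beside a background in which many genes changed. The median change of the 9 members was -0.0188 at 2 h and -0.113 at 3 h, beside -0.0255 and -0.0348 over all tested genes. The count of 6 at 3 h was reached in no fit that left out 1 library. In those fits the 3 h change was -0.21 to -0.14 for NCOA1 and -0.20 to -0.14 for CREBBP. In the averaged step from 1 h to 2 h 5 members were called (NR3C1, NCOA1, NCOA2 and NCOR1 lower, EP300 higher) beside 44.9% of all genes (22.1% lower, 22.7% higher), and from 2 h to 3 h 2 were called (NR3C1 and CREBBP, both lower) beside 10% of all genes (4.57% lower). In single lines at 2 h, 0 of 9 members were called in wt, SoF or Ctrl by edgeR, 3 had an unadjusted p under 0.05 in each line, and DESeq2 called 1 in wt and 0 in the others. Of all 23651 tested genes, edgeR called 4.6%, 5.68% and 7.95% in wt, SoF and Ctrl. An unadjusted p under 0.05 was found for 4397, 4715 and 5412 of them.

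Between lines, with time ignored and 8 libraries a line, the coregulator genes differed little beside NR3C1. SoF minus wt was 1.89 for NR3C1 (SE 0.41, adjusted p = 0.00634) and -0.31 for NCOA1 (SE 0.09, 1.24-fold lower, adjusted p = 0.0337), which made 2 members of 9 beside 8.02% of all genes. NCOA1 lay between 65.6 and 94.6 CPM in wt with a median of 81.1 CPM, between 54.3 and 71.9 CPM in SoF with a median of 66.8 CPM, and between 54.3 and 77.7 CPM in Ctrl with a median of 70.8 CPM, so the ranges over all times overlapped, but at each time both wt libraries lay above all 4 libraries of the mutant lines, as for 0.727% of all tested genes. Its SoF call was lost without any 1 of 5 single libraries, where the difference stayed between -0.31 and -0.28. Ctrl minus wt was 2.18 for NR3C1 (SE 0.42, adjusted p = 0.00261), the 1 member of 9 called beside 4.77% of all genes, and -0.23 for NCOA1 (95% interval -0.42 to -0.05, adjusted p = 0.146). SoF minus Ctrl called 0 of 9 members in edgeR, with 0 at an unadjusted p under 0.05 and 0 in DESeq2, beside 3.61% of all genes. Its intervals were -1.12 to 0.52 for NR3C1 and -0.32 to 0.21 for NCOA3, and they were narrower for the other 7 members.

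The spread in that comparison includes the change over time, and adding time as a term raised the count to 5 members for SoF minus wt (NR3C1, NCOA1, NCOA3, NRIP1 and MED1), 4 for Ctrl minus wt (NR3C1, NCOA1, NCOA3 and MED1) and 1 for SoF minus Ctrl (NR3C1, at -0.36). Over all 21122 genes tested it also raised the calls, from 1693 to 6134, from 1007 to 3965 and from 763 to 2814 genes in the same order. Without that term NCOA3 was at 0.30 in SoF and 0.35 in Ctrl relative to wt (adjusted p = 0.158 and 0.128), NRIP1 at 0.25 and 0.16 (adjusted p = 0.097 and 0.355), and MED1 at 0.17 in both (adjusted p = 0.0806 and 0.108). CREBBP, EP300, NCOR1 and NCOA2 were within 0.13 of wt in both lines. Both comparisons with wt share the wt libraries.

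**Figure D4:**
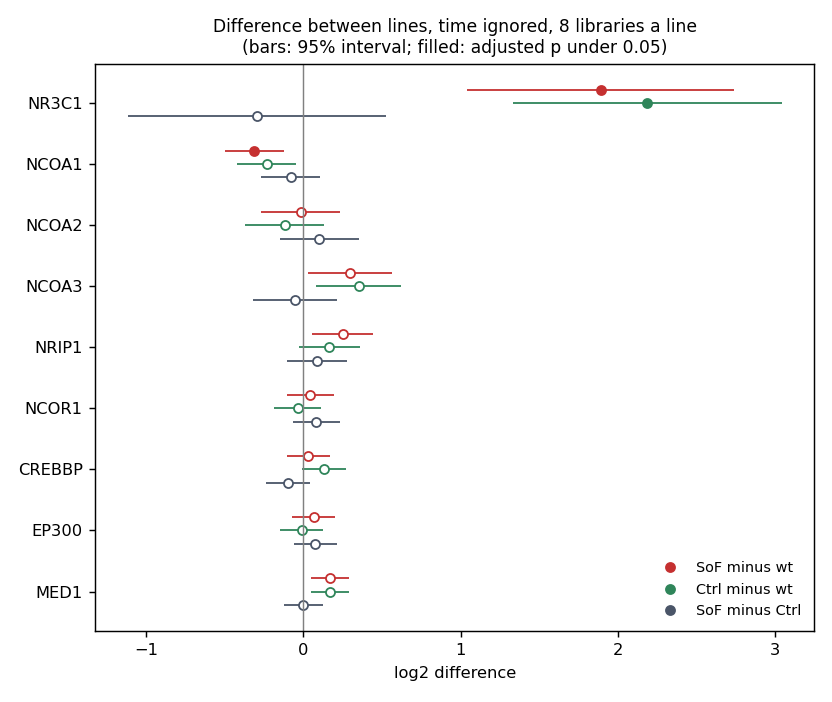
Difference between lines in log2 units with time ignored, 8 libraries a line, for SoF minus wt (red), Ctrl minus wt (green) and SoF minus Ctrl (grey), with bars for the 95% interval and filled points for an adjusted p under 0.05. The NR3C1 differences from wt were 1.89 and 2.18, and NCOA1 in SoF minus wt (-0.31) is the only filled point among the coregulator genes.

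Levels of different genes can be set side by side only per length, as CPM per kb of merged exons. Other differences between genes, such as their span on the chromosome, were not adjusted for in this labelled RNA. Among the coregulator genes over 24 libraries EP300 was highest at 29.2 ± 2.37 CPM per kb (SD), followed by MED1 at 20.7 ± 1.60, CREBBP at 16.1 ± 1.41, NRIP1 at 15.5 ± 2.11, NCOA3 at 9.94 ± 2.03, NCOA2 at 9.32 ± 1.52, NCOA1 at 8.02 ± 1.20 and NCOR1 at 5.32 ± 0.44 CPM per kb. The ranges of neighbours in that order overlapped except for EP300 and MED1, and for NCOA1 and NCOR1. NR3C1 was at 84.1 ± 50.0 CPM per kb in wt, 312 ± 210 in SoF and 382 ± 229 in Ctrl (n = 8 each). These values divide by the exon length of the gene (9161 bases), and the introduced coding sequence is shorter (777 codons). They also count reads of the gene's own exons, so they do not give the level per transcript of the construct.

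The members varied together to different degrees over the 24 libraries, which share lines, times and depth. Given as a description, Pearson's r of log2 CPM was 0.77 for NR3C1 and MED1, 0.67 for NCOA1 and NCOA2, 0.63 for CREBBP and EP300, and -0.56 for NCOA1 and NCOA3. Among 11406 tested genes with a mean of at least 10 CPM, those most like NR3C1 were ZFAS1 (r = 0.92), ANK2 (0.895), YWHAB (0.894), ENSG00000279696 (0.888) and ENSG00000278987 (0.884). Those most like NRIP1 were SLK (0.83), ARL1 (0.818), OTUD4 (0.816), KCTD9 (0.815) and AFF4 (0.807).

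The promoters of 8 members were at hand in RefSeq (GRCh38.p14), as 20 windows of 300 bases from 250 before to 50 after each start. They were searched because GR binds DNA at elements built from AGAACA and its reverse complement TGTTCT. The full 15-base element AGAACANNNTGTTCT was in 0 of the 20 windows and in 1 of all 35116 promoters of that length (0.00285%). The 6-base AGAACA, on either strand, was in 2 of the 20 windows, of NCOA1 and of CREBBP, and in 14.8% of all promoters. The 30 bases around each match are shown on the strand of the gene, with the match in capitals. They lie at chr2:24491265-24491294 (plus strand, the match beginning 23 bases after the start) and chr16:3880280-3880309 (minus strand, the match at -177 from the start).
NCOA1: cggccgaggaggAGAACAtggcggccgcgg
CREBBP: gcggcggcaccaTGTTCTcggggactgcct
A match of 6 letters is a description of the sequence and not a binding site.

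Beyond the 9 members, a list of 75 further genes of steroid receptors, coactivators, corepressors, the SWI/SNF remodeller and Mediator was read, of which 73 passed the filter (PGR and ESR1 did not). At 3 h, averaged over lines, 33 of 73 were called, 18 higher and 15 lower, beside 40.3% of all genes. At 2 h 29 were called (11 higher, 18 lower), beside 28.8% of all genes (12.6% lower). At 1 h 0 were called by edgeR and 15 had an unadjusted p under 0.05, beside 1.28% of all genes called and 3332 of 23651 with an unadjusted p under 0.05. The median 3 h change of the list was 0.00758, beside -0.0348 over all tested genes.

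Among the 23 coactivator genes 8 rose and 6 fell at 3 h, where 20.9% of all genes were called higher and 19.3% lower. PPARGC1B, a coactivator of nuclear receptors in mitochondrial gene programmes, rose by 1.55 (SE 0.14, adjusted p = 1.42e-08, edgeR), after a fall of -1.11 at 2 h (SE 0.16, adjusted p = 1.34e-05). Its SoF libraries had 12.8 and 8.02 CPM at 0 h, 3.81 and 3.08 CPM at 2 h, and 38.0 and 33.4 CPM at 3 h. The wt libraries went from 9.10 and 8.54 CPM at 0 h to 5.07 and 7.02 CPM at 2 h and at least 20.5 CPM at 3 h, and the Ctrl libraries from 10.8 and 11.2 CPM to 5.49 and 4.26 CPM and 38.2 and 30.1 CPM. All 3 lines thus passed through a low point at 2 h, and the averaged step from 2 h to 3 h was 2.66 (SE 0.15, adjusted p = 3.09e-10). EHMT2, which encodes the histone methyltransferase G9a, rose by 1.16 (SE 0.11) and CALCOCO1, a coiled-coil coactivator, by 1.00 (SE 0.10). CITED2, a partner of CREBBP and EP300, changed by -0.73 (SE 0.10, adjusted p = 3.39e-06). These 4 genes kept their calls in each of the 12 fits that left out 1 library.

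Of the 11 corepressor genes 3 rose and 0 fell at 3 h, of the 8 SWI/SNF genes 3 rose and 1 fell, and of the 29 Mediator genes 4 rose and 7 fell, beside the same 20.9% higher and 19.3% lower over all genes. MED20, in the head of Mediator, changed by -0.49 (SE 0.08, adjusted p = 4.63e-05).

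**Figure D5:**
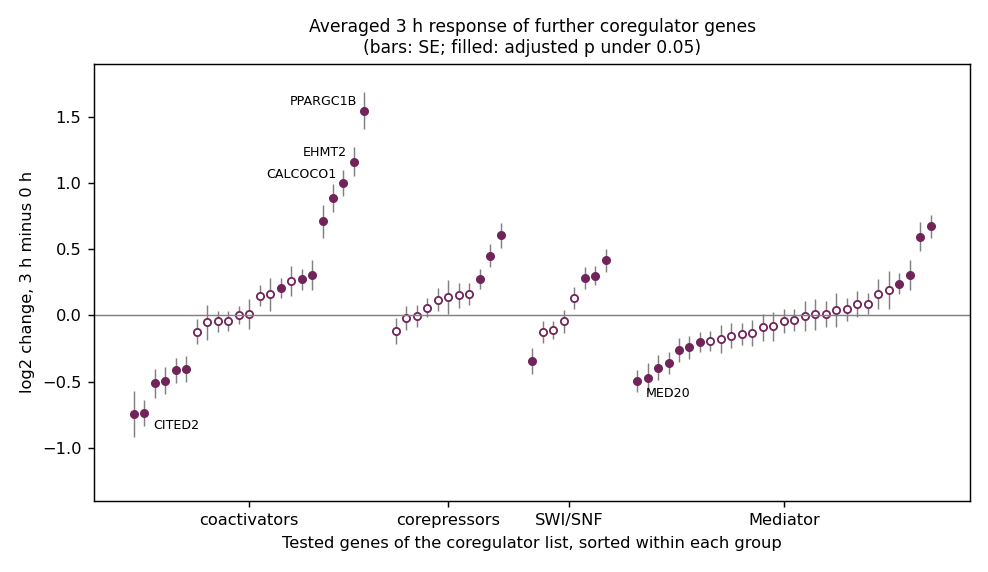
Change from 0 h to 3 h in log2 units, averaged over the 3 lines, for the tested coactivator, corepressor, SWI/SNF and Mediator genes of the list, sorted within each group, with bars for the SE and filled points for an adjusted p under 0.05. The filled points lie on both sides of 0 in the coactivator, SWI/SNF and Mediator groups, and PPARGC1B (1.55) is the highest.

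Between lines, 4 of 73 genes of the list were called in SoF minus wt, all higher, 1 in Ctrl minus wt (lower) and 3 in SoF minus Ctrl (2 higher, 1 lower). Over all genes 8.02%, 4.77% and 3.61% were called in the same order, so the shares of the list were near or under the background. NR3C2, which encodes the mineralocorticoid receptor and is the closest relative of NR3C1, was 0.55 higher in SoF than in Ctrl (SE 0.08, adjusted p = 0.000116) and 0.28 higher in SoF than in wt (SE 0.08, adjusted p = 0.0335). The first of these calls was kept in 17 of 18 fits that left out libraries and the second in 9 of 18. At 0 h NR3C2 had 39.8 and 47.9 CPM in wt, 48.2 and 51.7 CPM in SoF and 26.9 and 36.0 CPM in Ctrl. The Mediator genes MED28 (0.38, SE 0.10) and MED13 (0.27, SE 0.07) were higher in SoF than in wt, calls kept in 14 and 10 of 18 fits that left out libraries. SMARCC1, a core SWI/SNF subunit, was at -0.29 in Ctrl relative to wt (SE 0.08, adjusted p = 0.036) and 0.31 higher in SoF than in Ctrl (SE 0.08, adjusted p = 0.0239), kept in 7 and 11 of 18 such fits. SIN3A, a scaffold of a deacetylase complex, was at -0.21 in SoF relative to Ctrl (SE 0.06, adjusted p = 0.0433), kept in 4 of 18. The fourth gene called in SoF minus wt was TBL1XR1 (0.50, SE 0.15), a subunit of the NCOR1 complex.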

How the data were processed

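Cells were labelled and libraries made as described above, with a UMI adapter kit and ribosomal RNA depletion. Per the labels, the authors processed reads with UMI-tools 1.1.2, Trim Galore 0.6.6, STAR 2.7.3a and featureCounts on hg38. The deposited table holds whole-number read counts over the exons of each gene, not normalized. Use of strand in counting is given only in the table's name. All 24 libraries were used. Identifiers were matched to symbols, exons and positions of GENCODE release 44 without their version (61369 of 61533 genes, 99.7%).

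Total counts were 8106036 to 15820806. The 2 libraries of a group differed by more than counting error (chi-square per degree of freedom of 5.37 to 20.4), so they were not copies of each other. Counts were fitted with R 4.3.3 and edgeR 4.0.16, which calls limma 3.58.1. Libraries were scaled by TMM, genes were kept by filterByExpr (at least 10 counts, 15 in total), and p-values of the quasi-likelihood F test were adjusted by Benjamini-Hochberg over all tested genes. A fit on the 12 groups (23651 genes) gave responses, steps and line differences at each time, and a fit on line alone (21122 genes) gave line differences with time ignored. The coefficient of biological variation was 14.2% and 24%. Calls needed an adjusted p under 0.05. The SE of a log2 change is its size over the root of its F statistic, and intervals are 95%. Log2 CPM of single libraries used a prior count of 2. The fits were tested on simulated data. DESeq2 1.42.0, other scaling, no filter, a replicate block, a fit to 1 line, an additive time term, 0 h libraries alone and leaving out libraries were the alternatives.

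The members were given by name. Of the list of 75 genes, the 3 genes with the smallest p in each direction were named for the averaged 3 h response and for each line difference (1 of them is not reported here), and TBL1XR1 was named after its values were seen. The members, lists and tests were chosen with earlier results of these data known.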

Additional observations from a re-analysis of the deposited data

Results flagged for a closer look

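EP300 in the Ctrl line had 1 library apart from the other 7 among its 8 libraries of all times. Ctrl 2 h replicate 2 had 396 CPM, and its gap to the next highest library was 0.552 of the range of the 8 libraries, above Dixon's 95% critical value for 8 samples. The 27 combinations of 9 members and 3 lines were examined in this way and 1 passed. Chance passes about 1 in 20 where the libraries are of like treatment. These 8 differed in time, so that rate need not apply here.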

How the results depend on the processing

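The 9 members and 120 single-gene values (51 of them called) were refitted under each alternative. Other size factors in edgeR kept the direction and side of the threshold of all 120, DESeq2 of 113 and the fit without a filter of 99. No scaling moved the median of all genes by 0.1 or more. The cause of the changes below was not tested.

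Counts of members called of 9 moved as follows, each with the count over all genes in brackets. DESeq2 called 2 (1454) in Ctrl minus wt with time ignored, 1 (15) in the Ctrl response at 1 h, 2 (4284) in the SoF response at 3 h, 1 (1336) in the wt response at 2 h, 2 (4328) in the SoF step from 1 h to 2 h, and 1 (825) in the SoF and 1 (306) in the wt step from 2 h to 3 h. With no filter the averaged step from 1 h to 2 h called 3 (10368) and that from 2 h to 3 h 1 (2586), the Ctrl responses at 1 h and 2 h 1 (44) and 1 (2371), the SoF responses at 2 h and 3 h 1 (1882) and 2 (4735), SoF minus Ctrl at 3 h 1 (366), and the SoF and wt steps from 2 h to 3 h 1 (965) and 1 (444). A fit to the line alone called 3 (4364) in SoF at 3 h, 0 (22) in wt at 1 h, 2 (4187) in the SoF step from 1 h to 2 h, 1 (625) in the SoF step from 2 h to 3 h, and 1 (2738) in the wt step from 1 h to 2 h. An additive time term called 4 (3965) in Ctrl minus wt, 5 (6134) in SoF minus wt and 1 (2814) in SoF minus Ctrl. The 0 h libraries alone called 0 members and 0 of all genes in SoF minus wt, and 4 and 9 genes in all in Ctrl minus wt and SoF minus Ctrl.

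Replicate numbers were shared across groups and went with shared deviations in part of them. Deviations of same-numbered libraries correlated over 0.1 in 21 of 66 pairs of groups, under -0.1 in 9, and from -0.221 to 0.568 in all. The 3 pairs of 0 h groups were at 0.394 to 0.568. With the replicate block the count was 2 (5142) for the SoF response at 3 h and 1 (791) for the SoF step from 2 h to 3 h, and 119 of 120 single values kept their call. Since the 0 h replicates deviate together, each number was left out at 0 h in all 3 lines, an alternative chosen after seeing the data. Without 0 h replicate 1 the counts were 3 (11122) for the averaged response at 3 h, 0 (20) for wt at 1 h and 1 (2160) for wt at 2 h. Without 0 h replicate 2 they were 2 (5348) for the averaged response at 1 h, with NRIP1 then at 0.34, and 3 (6814) at 3 h. With all libraries 303 and 9525 genes were called at 1 h and 3 h, and without 0 h replicate 1 129 at 1 h.

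Leaving out 1 library or 1 replicate number gave 0 to 2 members for Ctrl minus wt with time ignored, 0 to 3 for SoF minus wt, 2 to 3 for the averaged response at 2 h, 3 to 5 for that at 3 h, 3 to 5 for the averaged step from 1 h to 2 h, 1 to 3 for that from 2 h to 3 h, 0 to 1 for the responses of Ctrl at 3 h, SoF at 1 h, wt at 1 h and wt at 3 h, 0 to 2 for wt at 2 h, and 1 to 2 for the wt step from 1 h to 2 h. With all libraries of 1 replicate number left out, neither comparison with wt called NR3C1, at 1.62 and 2.19 for SoF and 2.13 and 2.27 for Ctrl.

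Values that changed sign under the other alternatives were all uncalled. The 0 h libraries alone gave 0.13 for NCOR1 in Ctrl minus wt, -0.03 for NRIP1 in SoF minus Ctrl and 0.11 for NCOA2 in SoF minus wt. With no filter the averaged response at 1 h was -0.01 for MED1 and -0.02 for NCOA1, and the averaged step from 1 h to 2 h was 0.01 for NRIP1. Without 0 h replicate 1 in all lines the averaged 1 h response was -0.02 for MED1, -0.01 for NCOA1 and -0.01 for NCOA2, and without 0 h replicate 2 the averaged 2 h response was 0.01 for MED1 and the wt 2 h response of NR3C1 was 0.11.

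Leaving out libraries also turned the sign of uncalled values. The ranges were -0.05 to 0.03 for EP300 in Ctrl minus wt, -0.07 to 0.23 for NRIP1 in SoF minus Ctrl and -0.09 to 0.05 for NCOA2 in SoF minus wt. In the averaged response at 1 h they were -0.01 to 0.05 for MED1, -0.03 to 0.04 for NCOA1 and -0.01 to 0.12 for NCOA3, and in the averaged step from 1 h to 2 h -0.01 to 0.30 for NCOA3 (called without wt 2 h replicate 1) and -0.07 to 0.07 for NRIP1. For NR3C1 they were -0.57 to 0.10 in the wt response at 2 h and -0.40 to 0.02 in SoF minus Ctrl at 1 h. The response differences of NR3C1 ran from -0.60 to 0.08 for SoF minus wt and for Ctrl minus wt at 2 h, from -0.58 to 0.03 and from -0.33 to 0.28 at 3 h, and from -0.12 to 0.10 for SoF minus Ctrl at 2 h.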
